A study of Mus musculus with 26 samples.

Results

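Among the liver tumours of this mouse study, 4 of 20 libraries carried the transcript of Ttn at more than 1000 CPM (counts scaled to the usual unit, here relative to the library total), and these are called the Ttn-high tumours here. Ttn encodes titin, the giant spring protein of the muscle sarcomere. The 4 libraries came from 4 animals, CAB44, CAB225, GAB235 and CB6. The other 16 libraries came from 11 animals, because libraries that share an animal number (2 of CAB28, 3 of GAB242 and 3 of GAB294) were summed. The whole series holds 26 libraries. Of the Ttn-high tumours, Ttn ran from 11293 to 31446 CPM of the total. The nearest library on the other side of the threshold, CAB52, had 78.4, and the lowest other tumour had 2.15. Since a measured value chose the groups, the differences between them are given as a description with no test.

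The tumours arose in mice on a mixed C57BL/6J and Swiss Webster background in which a tamoxifen-inducible Cre, given at postnatal day 28, recombined floxed alleles in hepatocytes; the animals were followed for 6 to 12 months. The group Cyp1a2_CA carried Cyp1a2-CreERT2, Ctnnb1(ex3)fl/+ and Arid2fl/fl (10 libraries from 9 animals, CAB44 and CAB225 among them). Gls2_CA carried Gls2-CreERT2 with the same Ctnnb1 and Arid2 alleles (9 libraries from 5 animals, GAB235 among them). CB6 was the only animal of the group Cyp1a2_C, whose label gives Cyp1a2-CreERT2 and Ctnnb1(ex3)fl/+ and no Arid2 allele. The 6 WT livers were from C57BL/6J mice given AAV-Cre and kept for up to 12 months, so they differed from the tumours in strain and in how Cre was delivered. As background, Cyp1a2 is a gene of hepatocytes around the central vein and Gls2 of hepatocytes around the portal vein. Loss of exon 3 stabilises beta-catenin, the effector of canonical Wnt signalling, and Arid2 belongs to the PBAF complex, which remodels chromatin. The labels do not say whether fragments with the same animal number came from the same nodule.

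Canonical Wnt signalling keeps beta-catenin from being degraded; beta-catenin then binds TCF and LEF factors on DNA and switches on target genes, several of which feed back to restrain the pathway. In adult liver this signal is strongest around the central vein, where it maintains genes of glutamine synthesis and drug metabolism. In the embryo it acts with BMP, FGF and retinoic acid signals in the primitive streak and tail bud, where the transcription factor T (Brachyury) is made. Vim (vimentin, an intermediate filament) is a usual mark of mesenchymal cells, Lef1 is a Wnt-responsive DNA-binding partner of beta-catenin, and Stra6 is a membrane receptor that takes up retinol.

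Total counts ran from 39487796 to 49254470 in the Ttn-high libraries, from 36992043 to 47588109 in the other tumours and from 13486530 to 16975288 in WT. The mean total per library did not pass an exact two-sided permutation test between the 4 and the 11 tumour animals (p = 0.4029). Ttn-high libraries had 22282 to 23175 genes with a count, against 19523 to 20955 in the other tumours, and 1.43% to 2.31% of counts on mitochondrial genes, against 2.11% to 6.73%. Tumour and WT columns were not on the same scale: the median log2 ratio of tumours to WT was -1.54 for the 2430 genes with 1 RefSeq transcript and 1.48 for the 184 genes with 10. The rise per doubling of the transcript number was 0.88 to 0.92 in the other tumours and 0.96 to 1.10 in the Ttn-high tumours (log2). For that reason no ratio of tumours to WT is given, levels of different genes are not compared, and results are ratios of 1 gene between tumours. Between those 2 tumour groups the median difference ran from -0.14 for genes with 1 transcript to 0.38 for genes with 16 or more. Dividing the counts by the transcript number, chosen after seeing the data, left 1303 higher and 380 lower genes where the deposited counts gave 1242 and 361 by the rule given with the differences over all genes.

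All 5 genes that mark the group were higher in every Ttn-high tumour than in any other tumour. Levels from here on are CPM relative to library totals scaled by the TMM method, and differences are of mean log2(CPM + 0.5). Ttn (chr2:76703980-76982547, minus strand, mm10) stood at 20880 CPM in CAB44, 20420 in CAB225, 30108 in GAB235 and 8650 in CB6. In the 11 other animals its lowest, median and highest levels were 2.28, 4.34 and 94.2 CPM. The groups did not overlap, and the difference was 11.28 with an SD of 0.76 among the 4 and 1.42 among the 11. T (chr17:8434423-8442496, plus strand) was at 248, 314, 544 and 29.6 CPM in the same order, and at 0, 0 and 1.55 in the others. CB6 had the lowest T of the 4, yet was far above every other tumour. Stra6 (chr9:58063788-58153996, plus strand) was at 427, 429, 1650 and 331 CPM against 0, 0.49 and 3.09, with GAB235 apart from the remaining 3. Lef1 (chr3:131110471-131224356, plus strand) was at 236, 330, 466 and 412 CPM against 0.69, 6.71 and 36.2. Vim (chr2:13573927-13582826, plus strand) was at 464, 321, 513 and 450 CPM, and the 11 other animals lay close together at 7.75, 8.98 and 12.9. T and Stra6 had 0 counts in all 6 WT livers, which allows up to 0.18 to 0.22 CPM of the total by counting error alone (3 counts). Ttn had 20 to 34 counts, Vim 229 to 322 and Lef1 1 to 8 in a WT library.

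Muscle marker genes were nearly absent from these tumours. Of 15 skeletal muscle markers, 13 stayed under 1 CPM in every tumour, including Myod1, Myog, Ckm and Myh2, and of 8 heart muscle markers 7 did, with Nppb and Nkx2-5 at 0. The exceptions among the 23 were Acta1 and Tnnt3 of the skeletal list and Myl7 of the heart list. Tnnt3 was at 1.03, 2.49, 1.20 and 36.4 CPM in CAB44, CAB225, GAB235 and CB6, against at most 2.63 in the others, so that a high value was seen in CB6 only; Myl7 reached 4.60 CPM and Acta1 2.43 CPM at most. Of 32 sarcomere genes, 21 passed the filter on low values (at least 0.5 CPM in at least 4 animals), 5 were higher without overlap and 0 lower; over all genes tested the shares were 14.7% and 10.3%. Ttn is among the 5 because the rule chose the tumours by it. The other 4 were Tnnt2 (cardiac troponin T), Nebl (nebulette), Ryr1 (a calcium release channel) and Obsl1 (a cytoskeletal linker). Tnnt2 was at 101, 665, 357 and 441 CPM against 0, 0.44 and 9.17, and Nebl at 66.1, 80.1, 193 and 43.9 against 0.66, 1.5 and 3.79. Mybpc1, a myosin-binding protein of slow muscle, varied most: 31.8, 2515, 19.9 and 211 CPM, with CAB225 far above the rest, GAB235 under the highest other tumour (21.6) and a difference of 6.53. Neb (nebulin) did not separate the groups, at 605, 668, 590 and 218 CPM against 186, 853 and 1546.

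**Figure D1:**
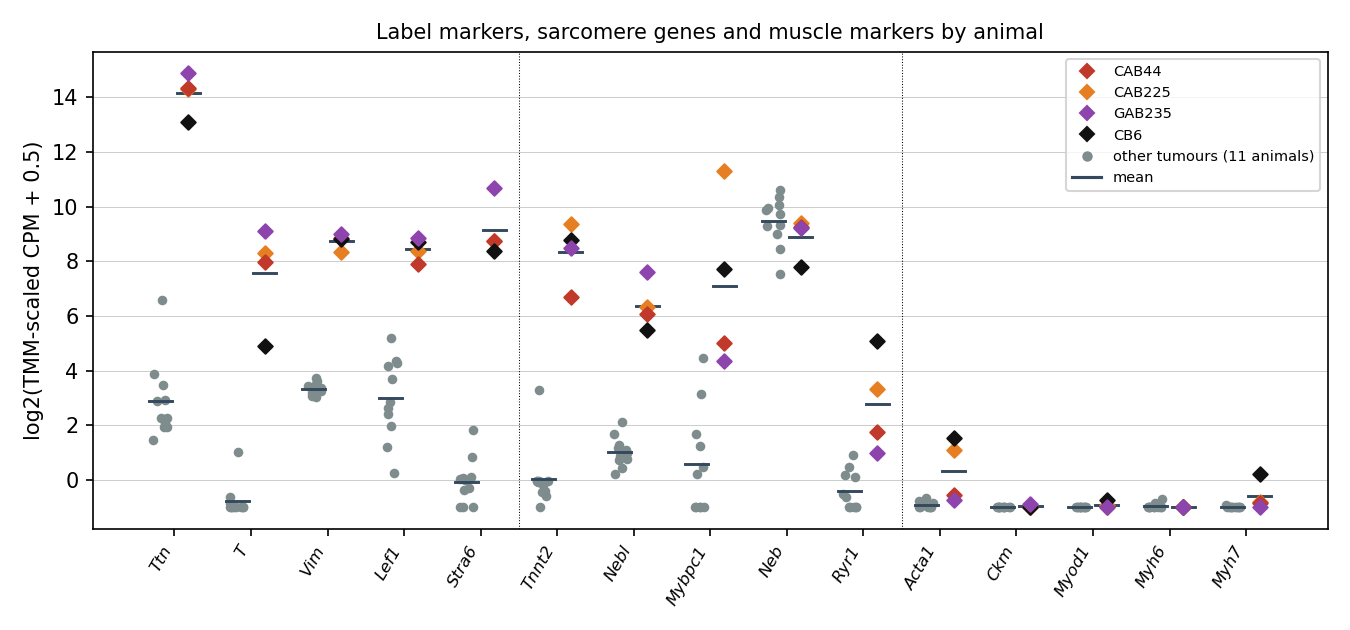
Levels by animal, as log2(TMM-scaled CPM + 0.5), of the 5 label markers, 5 sarcomere genes and 5 muscle markers (left to right, parted by dotted lines); diamonds are the 4 Ttn-high animals, grey points the 11 other animals and bars group means. The label markers part the groups with no overlap, while Ckm and Myod1 lie at the floor in all 15 animals.

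Over all 16595 genes tested, 2433 were higher in all 4 Ttn-high animals than in all 11 others (14.7%) and 1707 were lower (10.3%). This split moved with the scaling: column totals gave 3176 higher and 921 lower, and upper-quartile factors 2155 and 2154. The groups were chosen on expression, so nothing is read from these shares, which stand as the background for the counts over gene lists. With a difference of at least 4-fold as well, 1242 were higher (7.48%) and 361 lower (2.18%); the median difference over all genes was -0.02. Passing the filter through the Ttn-high animals alone fixes the direction: 485 genes, 13 of them in the gene lists, reached 0.5 CPM in all 4 Ttn-high animals and in none of the others, so list counts are given as descriptions. Genes at 0.5 CPM in fewer than 4 of the other animals also needed the Ttn-high animals to pass. The number of such genes was not counted. The number of genes at least 4-fold lower rested on CB6: without it 62 were lower by that much, while 1198 were higher by that much and 1762 were lower without overlap at any size. Without CAB44, 565 were at least 4-fold lower and 1345 higher. CB6 was at least 4-fold below each of the other 3 Ttn-high animals in 714 genes and above them in 77, where the other 3 had 13 to 20 and 12 to 24 such genes. Spearman correlations of levels between animals, as a description over genes that are not independent, had a median of 0.92 within the Ttn-high group (6 pairs), 0.96 within the others (55 pairs) and 0.82 between the groups (44 pairs).

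The 12 genes highest by difference were Ttn, Tenm2, Igfn1, Slc44a5, Arpp21, Grik1, Stra6, Unc13c, Cck, Dusp15, Pitx1 and Pex5l, from 11.28 to 8.34. Several are known from neurons: Tenm2 is a teneurin of synapses, Grik1 a kainate receptor subunit, Unc13c a regulator of synaptic vesicle release and Cck the cholecystokinin peptide. Tenm2 was at 969, 414, 1253 and 1016 CPM in CAB44, CAB225, GAB235 and CB6, with a median of 0 and a highest level of 2.20 in the others. Igfn1, a muscle protein with immunoglobulin and fibronectin domains, was at 273, 322, 1002 and 1379 CPM against at most 0.76. Pitx1, a homeobox factor of the hindlimb and first pharyngeal arch, was at 148, 131, 274 and 282 CPM against at most 0.85. Each of these was near 0 in the other tumours and well over 100 CPM in all 4 Ttn-high tumours, CB6 included. Arpp21 was under 0.5 CPM in every other tumour, so its direction was fixed by the filter. Tenm2, Igfn1, Slc44a5, Grik1, Unc13c, Cck, Dusp15 and Pitx1 also needed the Ttn-high animals to pass it. The 12 genes lowest by difference were Gstm3, Igfbp1, Ly6d, Apoa4, Fgf21, Prss8, Ifi27l2b, Gimd1, Slc13a3, Gulo, Ugt2b34 and Dpys, from -4.75 to -3.23. Igfbp1, a liver-secreted binder of insulin-like growth factors, was at 5.93, 23.0, 4.80 and 2.03 CPM against 36.9, 112 and 1659. Gulo, which makes ascorbate in rodents, was at 147, 266, 227 and 7.07 CPM against 498, 961 and 1496, so that CB6 was far below the remaining 3. Gstm3, a glutathione transferase with close paralogs whose reads the counting could have shared out, was at 42.0, 33.9, 56.1 and 0.21 CPM against 113, 569 and 961.

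Most genes that were higher within either genotype were higher in both. In Cyp1a2_CA, where CAB44 and CAB225 were set against 7 other animals, 1173 genes (7.07%) were at least 4-fold higher without overlap and 48 (0.289%) lower. In Gls2_CA, where GAB235 was set against 4 others, 1541 (9.29%) were higher and 750 (4.52%) lower. These comparisons share no animal, although both sides were chosen by Ttn. They do share the filter, which was set over all 15 animals together. The 485 genes that reached 0.5 CPM in the Ttn-high animals alone were thus bound to be higher without overlap in both genotypes. Their part in the shared genes was not counted. Higher in both were 1031 genes, 87.9% of the Cyp1a2_CA list and 66.9% of the Gls2_CA list. Lower in both were 31, 64.6% and 4.13% of the respective lists. Across genes, which are not independent, the differences had a Pearson r of 0.88 and a Spearman rho of 0.81. Ttn differed by 11.03 and 12.73, T by 8.79 and 10.05, Stra6 by 8.52 and 11.28, Vim by 5.26 and 5.70 and Lef1 by 5.19 and 5.75 in Cyp1a2_CA and Gls2_CA. CB6 had no tumour of its own genotype beside it; against the 7 other Cyp1a2_CA animals it differed by 9.78 for Ttn, 5.57 for T and 5.48 for Vim.

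**Figure D2:**
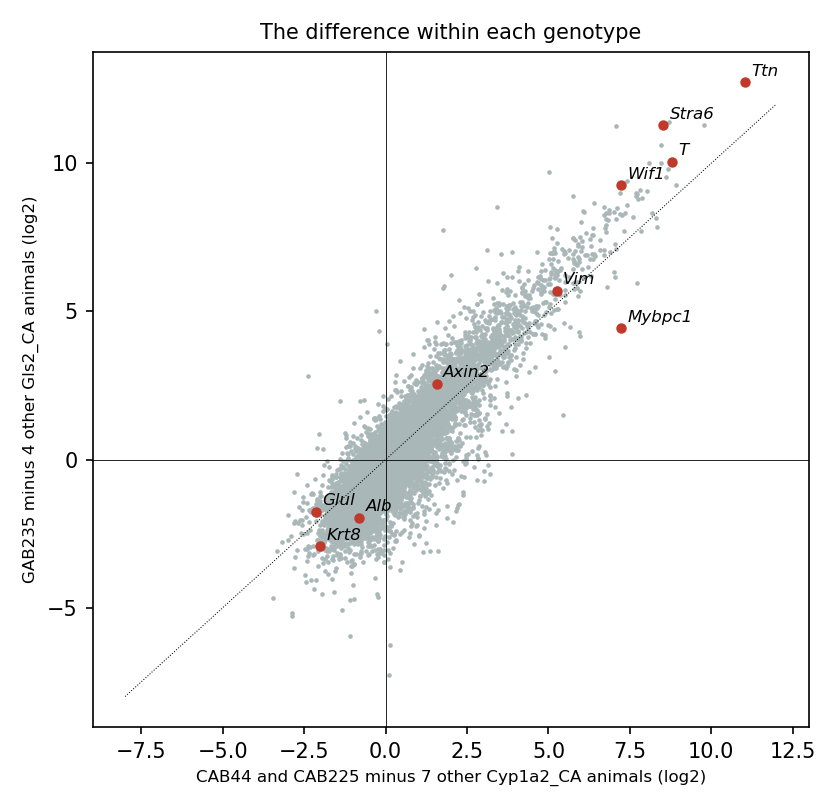
Each grey point is a gene, with the difference of mean log2(CPM + 0.5) of CAB44 and CAB225 from 7 other Cyp1a2_CA animals on the x axis and that of GAB235 from 4 other Gls2_CA animals on the y axis; the dotted line marks equal differences and red points are named genes. Ttn, Stra6, T and Wif1 lie far to the upper right, and Krt8 and Glul lie at the lower left.

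Labels that the rule did not use were then compared. Ttn-high tumours were 3 of 10 animals with the Cyp1a2 driver (30%, exact binomial 95% interval 6.67% to 65.2%) and 1 of 5 with the Gls2 driver (20%, 0.51% to 71.6%), with a Fisher exact p of 1, two-sided. They were 3 of 8 libraries with the letter L in the title and 1 of 12 with S or M, with an exact p of 0.255; the labels do not explain the letter, and libraries of 1 animal are not independent. In the study's own comparison of Cyp1a2_CA with Gls2_CA, edgeR's quasi-likelihood test called 0 of 17129 genes (0.0%) at an adjusted p of 0.05, with 554 at an unadjusted p under that value, and DESeq2 called 20 (7 higher and 13 lower in Cyp1a2_CA). Without the 3 Ttn-high animals in these groups, edgeR called 0 of 16898, with 1018 under the unadjusted threshold.

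Wnt target genes differed in both directions on average, and those without overlap were higher in the Ttn-high tumours. Of 24 listed targets 22 passed the filter, 12 were higher without overlap and 0 lower, where all genes gave 14.7% and 10.3%. The list median was 1.81, and without CB6 the counts were also 12 and 0. Wif1, a secreted Wnt inhibitor, was at 206, 289, 409 and 154 CPM in CAB44, CAB225, GAB235 and CB6, against 0, 0.54 and 4.22 in the others. Apcdd1, a membrane inhibitor of the pathway, was at 59.3, 165, 191 and 124 CPM against 0, 0.87 and 3.05. Both were nearly absent from the other tumours. The labels give the same Ctnnb1 allele for both groups, and its recombination was not measured. Nkd1, an inhibitor that binds Dishevelled, was at 268, 536, 556 and 483 CPM against 7.0, 34.0 and 159, and Nkd2 at 3.94, 17.9, 8.27 and 55.6 against 0.23, 0.35 and 0.60. Axin2, the general feedback target, was at 538, 528, 887 and 707 CPM against 92.2, 183 and 419, a difference of 1.94. Axin2 was thus well expressed in both groups. Glul (glutamine synthetase) was lower on average, at 222, 695, 692 and 110 CPM against 393, 2275 and 3365. Slc1a2, a glutamate transporter, was at 178, 523, 620 and 1.90 CPM against 213, 1688 and 2861, and Rhbg, an ammonium transporter, at 4.45, 12.3, 16.9 and 0.15 against 11.7, 74.9 and 110. For these 3 the groups overlapped, and without the other tumour CAB52, left out after seeing the data, 14 targets were higher and 2 lower without overlap.

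**Figure D3:**
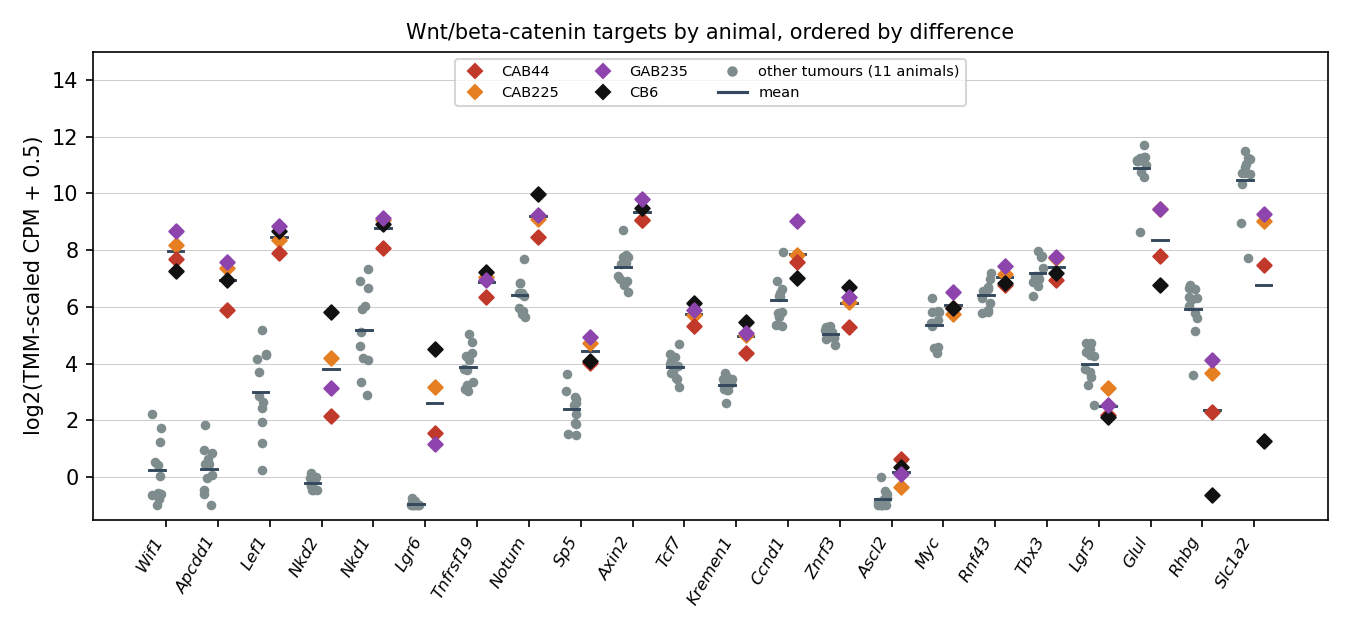
Levels of the 22 Wnt targets that passed the filter, as log2(TMM-scaled CPM + 0.5) by animal, ordered by the difference of group means; diamonds are Ttn-high animals, grey points the 11 others and bars group means. Wif1 and Apcdd1 stand at the left with a gap between the groups, and Glul, Rhbg and Slc1a2 at the right with the Ttn-high animals low.

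The stretch before the start site is shown for T and Sp5, known targets of this pathway that were high in the Ttn-high tumours and whose windows hold the letters described here. The sequences are from RefSeq (GRCm38.p6), are the 250 bases before the most upstream start in its table, both on the plus strand, and have in capitals each match to the core letters bound by TCF and LEF factors (CTTTGAA or CTTTGAT or CTTTGTA or CTTTGTT, on either strand). The windows are chr17:8434173-8434422 for T and chr2:70474673-70474922 for Sp5.
T: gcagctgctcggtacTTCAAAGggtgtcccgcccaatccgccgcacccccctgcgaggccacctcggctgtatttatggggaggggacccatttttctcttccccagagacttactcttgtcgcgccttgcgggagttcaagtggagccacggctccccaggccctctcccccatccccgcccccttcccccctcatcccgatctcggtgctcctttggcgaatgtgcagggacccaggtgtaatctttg
Sp5: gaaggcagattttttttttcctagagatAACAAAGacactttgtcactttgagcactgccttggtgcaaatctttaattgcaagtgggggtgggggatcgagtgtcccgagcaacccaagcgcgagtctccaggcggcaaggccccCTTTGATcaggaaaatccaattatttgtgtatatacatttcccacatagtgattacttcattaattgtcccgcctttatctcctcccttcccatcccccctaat
T held 1 match, 235 bases before the start, and Sp5 held 2, at 222 and 104 bases. Such a match was present in 14.9% of the windows of all 27025 genes with an entry. Among genes with an entry it was present in 1 of the 5 label markers (T), 3 of 14 Wnt targets, 5 of 17 early mesoderm and tail bud genes and 4 of 13 TGF-beta and BMP genes. The 3 Wnt targets were Sp5, Dkk1 and Slc1a2, and Slc1a2 was lower on average in the Ttn-high tumours. Wif1, Nkd1, Axin2 and Lef1, which were higher there, had no match in their windows. Sp5, a zinc finger factor, was at 15.6, 25.9, 30.4 and 16.6 CPM against 2.29, 5.35 and 11.9. A match is a description of these letters and not a site, and no match says nothing of the factor.

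Ligands and receptors of the Wnt pathway differed as well. Of 24, 20 passed the filter, 9 were higher without overlap and 3 lower, with a median of 2.05. Over all genes the shares were 14.7% and 10.3%. Wnt6, a canonical ligand, was at 96.4, 146, 194 and 159 CPM against 0, 0.11 and 1.58. Wnt5a, the main non-canonical ligand, was at 134, 215, 106 and 241 CPM against 2.93, 12.7 and 20.5. Wnt10a was at 19.3 to 47.6 CPM in the 4 tumours and overlapped only through an other tumour with 37.3. The following receptors of the Frizzled family were higher: Fzd10 at 11.3 to 27.2 CPM against at most 0.16, Fzd2 at 6.09 to 19.3 against at most 0.085, and Fzd6 at 87.4 to 133 against at most 15.8. Fzd10 and Fzd2 passed the filter through the Ttn-high animals alone and had to be higher. The family was not uniform: within both genotypes Fzd1 and Fzd3 were higher on average, and Fzd4, Fzd5, Fzd7 and Fzd8 lower. In Cyp1a2_CA and Gls2_CA, Fzd5 differed by -0.92 and -2.01 and Fzd8 by -1.14 and -1.35. The coreceptor Lrp5 was lower, at 44.2, 44.7, 33.4 and 19.2 CPM against 77.1, 101 and 172.

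Genes of the TGF-beta and BMP pathways were higher in the same tumours, ligands, extracellular antagonists and targets included. Of 22 listed, 21 passed, 13 were higher without overlap and 0 lower, where all genes gave 14.7% and 10.3%. The list median was 1.73, and without CB6 the counts were also 13 and 0. Bmp4 was at 193, 228, 299 and 162 CPM against 3.56, 6.14 and 16.9, and Bmp7 at 38.1, 80.7, 91.5 and 70.7 against 0.21, 3.01 and 12.8. Tgfb2 was at 61.3, 104, 77.7 and 129 CPM against 2.80, 4.06 and 13.6. All 3 ligands were above every other tumour in each Ttn-high tumour. Nog (noggin), which traps BMPs outside the cell, was at 15.1, 17.4, 34.6 and 6.01 CPM against at most 0.085. It passed the filter through the Ttn-high animals alone, so its direction was fixed. Id1 and Id3, which BMP signalling induces, were at 21.7 to 46.4 CPM against 0.83 to 3.10 and at 37 to 58.2 against 2.82 to 11.2. The receptors Tgfbr1 and Tgfbr2 overlapped, with differences of -0.02 and -0.15.

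FGF genes went in both directions, and the retinoid genes without overlap were mostly higher. Of 18 FGF ligands and receptors 8 passed, with 3 higher and 3 lower without overlap, where all genes gave 14.7% and 10.3%. Among the 3 higher, Fgf9 and Fgf18 were under 0.5 CPM in every other tumour. They passed the filter through the Ttn-high animals alone and had to be higher, which leaves Fgfr1. Fgf9, a ligand of mesenchymal tissues, was at 10.9, 8.02, 20.9 and 3.14 CPM against at most 0.10, and Fgfr1 at 156, 135, 130 and 272 against 3.45, 9.02 and 69.4. Lower were the hepatocyte receptor Fgfr4, at 24.1, 18.9, 7.62 and 1.83 CPM against 28.1, 34.4 and 45.9, and the liver hormone Fgf21, at 3.89, 2.72, 0.94 and 0.056 against 10.4, 19.6 and 54.3. Of 20 retinoid genes 17 passed, 6 were higher and 2 lower, and those lower were a share near the 10.3% of all genes. The list median of -0.07 became 0.22 without CB6 and 0.16 with column totals as the scale. Besides Stra6 the higher genes included the receptors Rarb (36.5 to 73.6 CPM against 1.98 to 10.9) and Rarg (29.4 to 55.4 against 3.44 to 24.8) and Aldh1a2, which makes retinoic acid in the embryo (2.09 to 12.7 against 0.026 to 0.71). Rbp4, the retinol carrier secreted by hepatocytes, was lower at 588, 616, 472 and 20.3 CPM against 1229, 1712 and 2086.

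T was not joined by most other genes of the primitive streak and tail bud. Of 20 such genes 5 passed and 2 (T and Evx1) were higher without overlap, where 14.7% of all genes were. Evx1 was under 0.5 CPM in every other tumour, so it passed the filter through the Ttn-high animals alone and had to differ, and T was above that level in a single other tumour. Of the 20, 13 stayed under 1 CPM in every tumour, and Msgn1, Wnt3a and Tdgf1 were at 0. Evx1, a homeobox factor of the streak, was at 0.70, 8.14, 2.39 and 4.07 CPM against 0, 0 and 0.34. Tbx6, a factor of the presomitic mesoderm, was at 0.84 to 1.09 CPM and overlapped the others.

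The name mesenchymal-like fitted part of the mesenchymal list. Of 20 genes 18 passed, 10 were higher and 3 lower without overlap, with a median of 1.46. Among all genes tested 14.7% were higher and 10.3% lower without overlap. Cdh11, a cadherin of mesenchymal and bone-forming cells, was at 240, 203, 351 and 258 CPM against 0.11, 0.36 and 1.24, and Fbn1 (fibrillin) at 219, 280, 444 and 269 against 13.6, 15.8 and 23.5. Mmp2, a matrix protease, was at 38.1, 44.1, 52.3 and 105 CPM against 0.50, 0.95 and 1.41. Zeb1 and Zeb2, repressors of epithelial genes, were higher by 1.21 and 1.55. Other members did not follow: Fn1 (fibronectin) was lower at 7821, 7379, 2772 and 5017 CPM against 8707, 13709 and 26979, Cdh2 (N-cadherin) was lower by -0.82, Twist1 stayed under 1 CPM and Twist2 reached 1.45 at most. Among 20 epithelial genes 19 passed, 1 was higher and 8 lower, with a median of -1.46 (-1.12 without CB6). Krt8, a keratin of hepatocytes, was at 24.2, 18.2, 13 and 2.02 CPM against 52.4, 101 and 145, and Cldn2, a tight junction claudin, at 44.2, 44.2, 31.6 and 2.28 against 134, 184 and 361. Cdh1 (E-cadherin) overlapped, at 3.53, 5.53, 8.32 and 2.30 CPM against 1.30, 8.60 and 83.3.

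**Figure D4:**
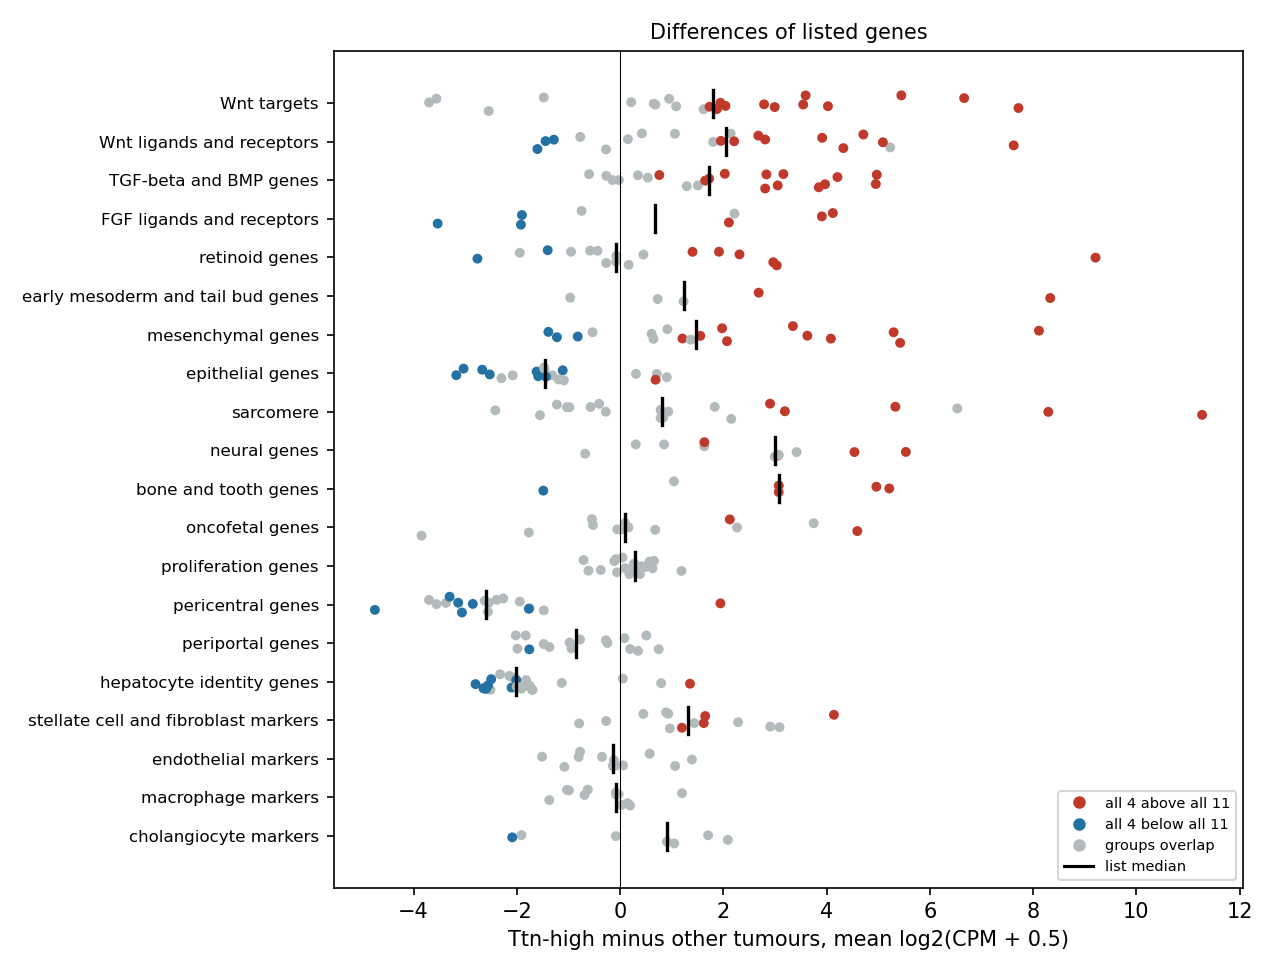
Each point is a listed gene that passed the filter, placed by the difference of mean log2(CPM + 0.5) between the 4 Ttn-high and the 11 other animals; red and blue mark genes whose groups do not overlap, grey those whose groups do, and black bars list medians. The signalling and mesenchymal lists lie mostly to the right of 0, the pericentral and hepatocyte lists to the left, and proliferation genes near 0.

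Liver genes were lower on average in the Ttn-high tumours, most of all in CB6. In bulk RNA, fewer hepatocytes and less RNA of a gene in each hepatocyte cannot be told apart. Of 23 hepatocyte identity genes in the table all passed, 8 were lower and 1 (Prox1) higher without overlap. Over all genes 10.3% were lower and 14.7% higher. The list median of -2.01 became -1.02 without CB6. Alb (albumin) was at 8079, 5165, 1969 and 297 CPM in CAB44, CAB225, GAB235 and CB6, against 5119, 10053 and 31066 in the others. Apob, the backbone of liver lipoproteins, was at 3972, 3423, 1733 and 128 CPM against 5974, 8918 and 13167. Hnf4a, the central hepatocyte transcription factor, was at 446, 405, 207 and 12.4 CPM against 726, 811 and 1062. The order was the same for these 3 genes, with CAB44 highest, CAB225 next, then GAB235, and CB6 far below. Prox1, a factor of early hepatocyte fate, was the exception at 826, 1104, 1272 and 1464 CPM against 237, 492 and 755. Of 18 pericentral genes 6 were lower and 1 (Axin2) higher, with a median of -2.59 (-1.59 without CB6). Cyp1a2, whose promoter drives Cre in 3 of the 4 animals, was at 37, 86.2, 182 and 0.37 CPM against 157, 242 and 665. Of 16 periportal genes 1 was lower (Asl), a share under the 10.3% of all genes. The median of -0.86 became 0.17 without CB6. Cps1, the entry enzyme of the urea cycle, was at 611, 450, 330 and 23.1 CPM against 79.3, 410 and 871, so that 3 of the 4 lay within the range of the others.

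**Figure D5:**
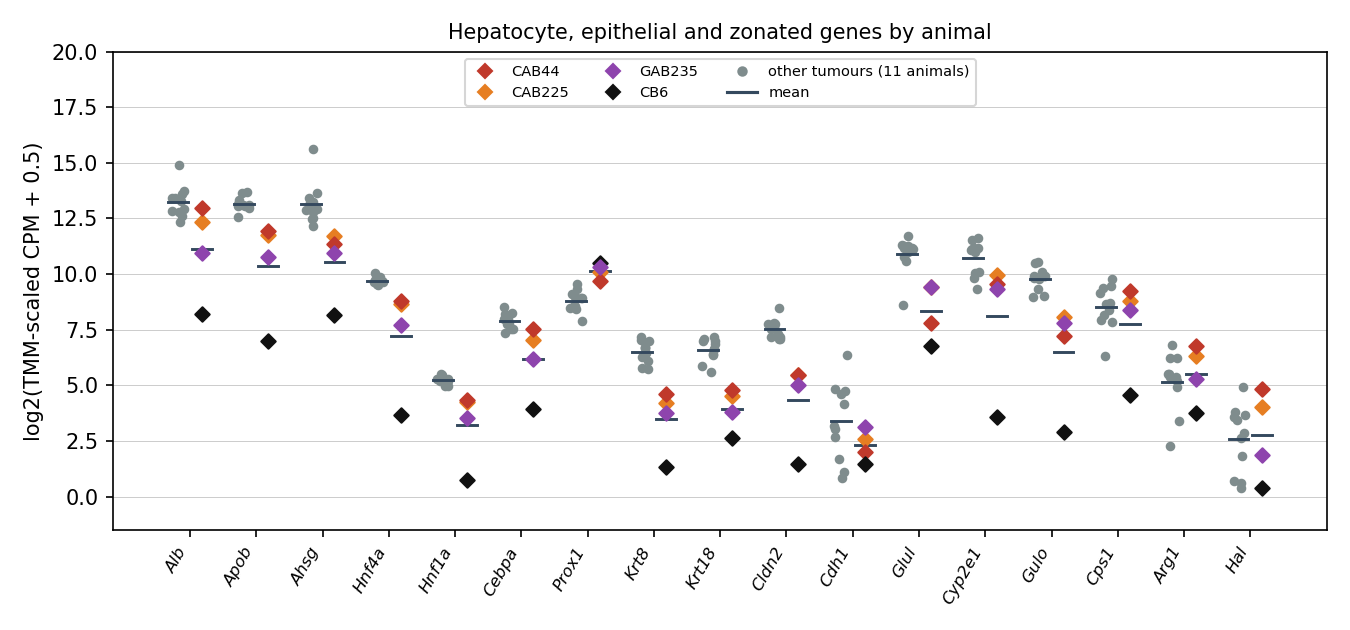
Levels of hepatocyte, epithelial and zonated genes as log2(TMM-scaled CPM + 0.5) by animal, with diamonds for the Ttn-high animals, grey points for the 11 others and bars for group means. CB6 (black) lies below the other 3 Ttn-high animals in most of these genes, and Prox1 is higher in all 4.

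The recombined genes overlapped between the groups. Ctnnb1, whose exon 3 is removed on 1 allele, was at 208, 215, 324 and 126 CPM against 73.0, 97.0 and 176. Arid2 was at 35.1, 36.8, 47.0 and 42.4 CPM against 23.7, 30.4 and 39.7; CB6, with no Arid2 allele in its label, lay between the Arid2fl/fl tumours. A count over the whole gene does not show whether an exon was removed, so these levels do not check the genotypes. Gls2 was at 56.6, 35.2, 10.8 and 3.08 CPM against 1.90, 17.7 and 55.2.

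Most markers of other cell types overlapped between the groups. So did most genes tested, of which 14.7% were higher and 10.3% lower without overlap. Of 12 endothelial and 12 macrophage markers all passed and 0 were higher or lower without overlap, with medians of -0.13 and -0.08. The summed endothelial level was 363 to 524 CPM in the Ttn-high tumours and 282 to 498 in the others. Members of both lists moved both ways on average. Flt1 and Cdh5 differed by 1.39 and 1.07, and Stab2 and Clec4g by -1.51 and -1.08. Among macrophage markers Lyz2 differed by 1.20, and Cd5l and Timd4 by -1.37 and -1.03. Of 15 stellate cell and fibroblast markers 14 passed and 4 were higher, with summed levels of 332 to 1537 CPM against 172 to 621. The list median was 1.32. Reln and Lrat of this list were lower on average and overlapped, with differences of -0.79 and -0.27, and the rest that passed were higher on average. Pdgfra, a growth factor receptor of fibroblasts, was at 174, 100, 126 and 223 CPM against 4.48, 7.34 and 13.9. Col1a1 (collagen I) was at 114, 95.7, 19.5 and 657 CPM against 6.42, 15.5 and 20.7, and Acta2 (smooth muscle actin) at 30.1, 126, 4.44 and 91.5 against 1.82, 4.01 and 7.34. GAB235, which had the highest Ttn, T, Stra6 and Vim, thus had Col1a1 and Acta2 within the range of the other tumours. Without GAB235, 12 of the 14 were higher without overlap, as in Cyp1a2_CA animals only; the count was 1 with upper-quartile factors and 2 with every library on its own. The part of fibroblasts in the other differences was not tested. In other lists, Msln, a mesothelial marker, was at 0.56 to 2.43 CPM against at most 0.40. It passed the filter through the Ttn-high animals alone and had to be higher. Onecut2, of the cholangiocyte list, was lower at 4.05 to 61.4 CPM against 65.5 to 154. Of 22 proliferation genes all passed and 0 were higher or lower without overlap, with a median of 0.28; Mki67 was at 299, 268, 164 and 349 CPM against 53.3, 196 and 678.

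Genes of other lineages were present at uneven levels. Of 18 neural genes 11 passed and 4 were higher, with a median of 3.0 (1.80 without CB6). Over all genes 14.7% were higher and 10.3% lower without overlap. Rbfox1, a splicing factor of neurons and muscle, was at 116, 122, 122 and 71.4 CPM against 0.10, 1.66 and 14.1, and Ncam1, a neural adhesion molecule, at 288, 164, 84.4 and 539 against 2.96, 7.94 and 36.3. Nrxn3 and Elavl4 were high mainly in CB6, at 548 and 70.0 CPM, and Elavl4 was at 0 in CAB44. Of 16 bone and tooth genes 6 passed, 4 were higher and 1 lower. Among the 4, Sp7 and Msx1 were under 0.5 CPM in every other tumour. They passed the filter through the Ttn-high animals alone and had to be higher. Dlx3 reached 0.5 CPM in CAB52 alone among the others, so it also needed the Ttn-high animals to pass. Runx2, the master factor of bone-forming cells, was at 258, 176, 616 and 162 CPM against 2.74, 7.67 and 13.4, and Dlx3, a homeobox factor of teeth and bone, at 15.6, 18.9, 30.7 and 35.6 against 0, 0.021 and 4.04. Ibsp and Dmp1, matrix proteins of mineralised tissue, did not pass the filter; CB6 had 30.7 and 48.9 CPM and the other Ttn-high tumours 0.38 to 2.68 and 0 to 5.49. Of 18 oncofetal genes 13 passed and 2 were higher, a share near the 14.7% of all genes. These were Sox11 (9.42 to 30.7 CPM against at most 0.49) and Sox4 (13.1 to 21.7 against 1.21 to 8.99). Sox11 passed the filter through the Ttn-high animals alone, so its direction was fixed. Afp, the classical fetal liver protein, was at 2.07, 3.58, 2.92 and 0.19 CPM against 0.50, 5.14 and 1436.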

How the data were processed

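Bulk RNA was sequenced from frozen liver tumour fragments and WT livers; per the labels' protocols, extraction used TRIzol followed by columns and DNase, and library construction a Nugen Ovation kit. The authors deposited raw counts, whole numbers for 35976 gene symbols in 26 libraries, with no normalization. The build was mm10, per the submitters' processing notes. No aligner, counting program, strand setting or gene annotation was found (not given in the sources used here), so overlapping and antisense genes could not be told apart. Tumour counts rose with the number of transcripts of a gene relative to WT, so a tumour read may have been counted more than once and no counting intervals are given for tumours.

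Libraries of 1 animal number, read from the titles, were added together, scaled by TMM (edgeR 4.0.16, R 4.3.3) and expressed as CPM. Genes with at least 0.5 CPM in at least 4 of 15 tumour animals were kept (16595). Ttn-high and other tumours were compared by means of log2(CPM + 0.5), SDs over animals and overlap, with no test. Drivers were compared with edgeR's quasi-likelihood test (filterByExpr, Benjamini-Hochberg adjustment, threshold 0.05) and, as an alternative, DESeq2 1.42.0. Labels were compared with Fisher's exact test. Replicates are animals, so the spread is between animals.

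The members, the 30 gene lists (432 symbols, 430 found) and the tests were chosen with earlier results of these data known. Genes were named by rule: label markers and genes of the genotypes in full, up to 6 members with the largest difference of each other list and members at 0, and the 12 highest and 12 lowest genes without overlap, leaving out gene models and genes under 10 CPM on average in the higher group. Axin2, Sp5, Glul, Lrp5, Tgfbr1, Tgfbr2, Zeb1, Zeb2, Twist1, Twist2, Fn1, Cdh2, Cdh1, Neb, Alb, Hnf4a, Prox1, Cps1, Ibsp, Dmp1, Msln and single muscle markers were named after their values were seen. Scripts were tested on simulated data. Alternatives were other scalings, filters, pseudocounts and folds, single libraries, Cyp1a2_CA animals only, and leaving out animals.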

Additional observations from a re-analysis of the deposited data

Results flagged for a closer look

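In 5 of 34 checks over the 4 Ttn-high tumours, a tumour lay apart from the other 3 by more than Dixon's 95% critical ratio. The ratio is the gap to the nearest value over the whole range. Chance gives about 1 in 20 for a single check. The checks share the same 4 animals and some lists share genes, so they are not independent. Their number is therefore not set against chance. The Stra6 level had a ratio of 0.838, with GAB235 highest. The median level of the mesenchymal genes had 0.916, with CB6 highest. The median of the early mesoderm and tail bud genes had 0.944, with GAB235 highest. The median of the pericentral genes had 0.888, with CB6 lowest. The median of the stellate cell and fibroblast markers had 0.905, with GAB235 lowest.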

How the results depend on the processing

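The number of genes at least 4-fold higher without overlap (1242) was 790 with a pseudocount of 2 CPM and 475 among genes with 0.5 CPM in all 15 animals, a filter that removes genes absent from the other tumours; it ran from 1198 to 1345 when each Ttn-high animal was left out. The number lower (361) was 222 with column totals as the scale and 47 in Cyp1a2_CA animals only, and ran from 62 (without CB6) to 565 (without CAB44). Column totals moved the median of all genes to 0.18, with 1417 genes higher. The median of the label markers (8.33) was 10.33 with a pseudocount of 0.1 CPM and 6.5 with 2 CPM, and ran from 7.82 to 9.19 over left-out animals. With a pseudocount of 0.1 CPM the medians of the early mesoderm, BMP and bone lists were 2.12, 2.11 and 4.71. With 2 CPM those of the early mesoderm, neural, bone and Wnt ligand lists were 0.55, 1.73, 1.73 and 1.37. The median of the BMP list was 1.36 in Cyp1a2_CA animals only. Counts divided by the transcript number, an alternative added after the data were seen, gave 1.92 for the early mesoderm and 1.75 for the neural list, whose median ran from 1.80 to 2.96 over left-out animals. For genes past 2-fold, those higher in both genotypes were 62.9% of the Gls2_CA list, and those lower in both were 90.3% of the Cyp1a2_CA and 21.9% of the Gls2_CA list. Past 8-fold, those higher in both were 92.5% and 61.5% of these lists, and those lower in both 1.90% of the Gls2_CA list. DESeq2 called 20 genes between the drivers where edgeR called 0, under every animal left out as well. The cause of these shifts was not tested, apart from the filter. In all, 362 other values of lists and counts under an alternative moved by less than the spread between animals or, for counts, by less than 1.5 times. Of the differences of single named genes, 114 moved by more than the spread between animals and 4241 by less. No paired analysis was possible because replicate numbers of the groups were given in accession order and pair no animals.

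The groups hold 4 and 11 animals and were chosen on expression, so no value says how often such tumours arise or would separate in other animals. Within Gls2_CA the Ttn-high side is a single animal, and CB6 is alone in its genotype. Genes near 0 in the other tumours have differences that depend on the pseudocount. Tumour counts are not on the scale of WT counts, so neither group was placed against normal liver.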

Other observations

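CB6 carried Xist, the RNA of the inactive X chromosome, at 112 CPM, against 1.42 to 3.21 CPM in the other 3 Ttn-high tumours and at most 18.7 in the other tumours. It carried the Y-linked Ddx3y at 92.3 CPM as well, against 34.7 to 191 in the other tumours. Kdm5d, also Y-linked, was at 35.2 to 47.0 CPM in the Ttn-high tumours and at 1.33 to 27.7 in the others.

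Cd4, listed as a T cell marker, was at 28.9, 20.3, 14.2 and 1.33 CPM in CAB44, CAB225, GAB235 and CB6, against at most 1.37 in the other tumours, while Cd3e was at 0.37 to 1.42 CPM against 0.10 to 1.18. Of the 8 T and NK cell markers, 7 were in the table and 5 stayed under 1 CPM in every tumour. Among cholangiocyte markers, Sox9 was at 23.9, 11.3, 22.3 and 5.58 CPM against 0.15 to 24.8, and Krt19 at 1.22 to 2.41 against 0.10 to 1.35. Prom1, a progenitor surface marker, was at 8.06, 9.32, 16.2 and 0.37 CPM against 8.78, 76.1 and 544. Xist, Ddx3y, Kdm5d, Cd3e and Krt19 were named after their values were seen.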
